A study of Arabidopsis thaliana with 8 samples.

Results

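The transcripts described here are those that stood higher in Arabidopsis seedlings 3 h after sulfate was given back (3 h S) than both in starved seedlings (-S) and in seedlings on full nutrition (FN). A probe set, the group of probes that reports 1 transcript on the Affymetrix ATH1 array, is a member if its signal ratio 3 h S/-S was above 1.6 and its ratio 3 h S/FN above 1.5 in both experiments, with a 3 h S signal of at least 30 in both. Of 22746 probe sets, 164 passed these limits, and 161 remained after genes that the rule leaves out by name (HRE2 and 10 glucosinolate genes) were removed, of which IPMI1, SUR1 and SOT17 had passed. Among the 12799 probe sets with enough 3 h S signal the rule took 1.28%. The members carry 98 named genes on 99 probe sets, while 3 probe sets match several genes and 59 have no name here. The members were thus chosen by their measured ratios of 3 h S to -S and to FN signals, and both are given below as descriptions without a test.

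Whole Col-0 seedlings were grown in sterile liquid culture under constant light and harvested from age 9 days. FN seedlings stood in medium with 3 mM sulfate. All other seedlings were raised for 7 days at 150 µM sulfate and then kept for 48 h in medium without added sulfate (-S), and some of these received 500 µM sulfate for 30 min (30' S) or 3 h (3 h S). Each of the 4 conditions has 1 array in each of 2 experiments, which the study calls biological replicates, so n = 2 throughout and the number of arrays limits the precision. The resupplied flasks were opened and were harvested later than the FN and -S flasks, and no KCl-supplied control flask is among the arrays analysed here, so sulfate, flask opening and the added hours cannot be told apart. The study's recipe also lists less potassium nitrate and ammonium nitrate in the -S medium than in the FN medium, so values over FN carry nitrogen supply along with sulfate. The values are the authors' MAS 5.0 signals on a linear scale, and a level of one probe set cannot be set against that of another.

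Of the 69 named genes given a role here, 49 were placed under the making of ribosomes or translation, among them all DEAD-box RNA helicases by family. The share of these roles over all named probe sets was not determined, so this count describes the list and is no measure of enrichment. In plants, as in yeast and animals, RNA polymerase I transcribes the large ribosomal RNA precursor in the nucleolus, small nucleolar RNA-protein particles (snoRNPs) guide its chemical marking, and a large set of assembly factors and RNA helicases folds and cuts it into the small and the large subunit. Genes for these factors are known to be switched together when growth conditions change, and ribosome making is a large cost for a growing plant cell.

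The members had similar median signals in FN, -S and 30' S seedlings and higher ones at 3 h. Their median signal was 64.5 in FN, 60.7 in -S, 65.7 in 30' S and 138 in 3 h S seedlings of experiment 1, and 60.1, 53.5, 60.3 and 118 in the same order in experiment 2. Both 3 h S signals lay above all 6 other signals for 149 of 161 members. The rule itself placed each 3 h S signal above the FN and -S signals of its experiment, and the share over all probe sets was not determined. This count is therefore a description, as is the same pattern where it is given for single members below. The median ratio 3 h S/-S was 2.14 in experiment 1 and 2.11 in experiment 2, and the median ratio 3 h S/FN was 2.15 and 1.83. With the limits turned round, 3 h S below both -S and FN, 19 probe sets passed. There the signal minimum was set on the -S and FN signals in place of 3 h S, and no genes were left out by name. The 19 is thus not a like count to the 161.

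**Figure D1:**
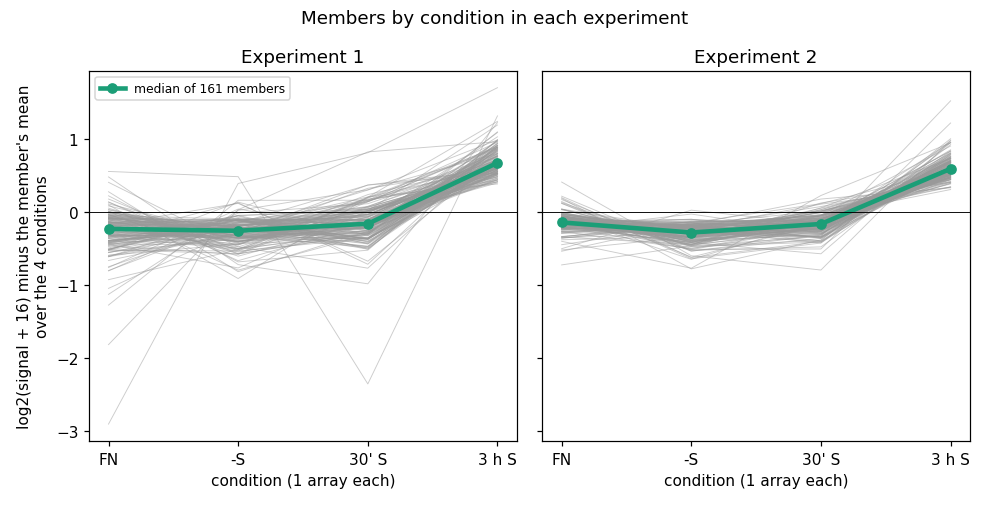
Each thin line is 1 of the 161 members in experiment 1 (left) or experiment 2 (right), as log2(signal + 16) minus the member's own mean over the 4 conditions on the x axis, with 1 array per condition; the thick line is the median. The median is near level from FN through -S to 30' S and is higher at 3 h S, which the rule itself required against FN and -S.

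Few probe sets were called in -S over FN, among the members as among all probe sets tested, so the count is no result about the members. This comparison holds the difference in nitrogen supply along with that in sulfate. The rule used the -S and FN signals of the members, both as denominators, so neither this count nor its distance from the background is independent of the choice. On log2(signal + 16), fitted by limma to the 8 arrays together with a block for the experiment, 1 of 161 members was called in -S over FN at an adjusted p limit of 0.05, the glucosinolate sulfotransferase SOT18, which was lower. Of the 17138 probe sets tested, 0.875% were called higher and 0.543% lower in this comparison. The member median was -0.10 on the log2 scale, against 0.05 over all probe sets tested. The ratio -S/FN was below 1 in both experiments for 76 members (47.2%), against 29.0% of all probe sets tested. It was above 1 in both for 23 members (14.3%), against 38.9%. These shares are not independent of the rule either. Within each experiment, 129 members lay between 1.5-fold lower and 1.5-fold higher in -S than in FN, 7 were below that range in both experiments and 1, the ABC transporter ABCB12, was above it in both. The call of SOT18 (adjusted p = 0.0218) was lost when any -S, 30' S or 3 h S array was left out, and without the FN array of experiment 2, the number called was 22 members, 12 higher and 10 lower. Without the experiment as a block 0 members were called.

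No member passed the test 30 min after sulfate was returned. In 30' S over -S limma called 0 of 161 members, and 0% of all probe sets tested were called higher. By limma 8 members had an unadjusted p under 0.05, against 509 of 17138 probe sets tested. The methods' t-test called 0 members after adjustment and gave 3 at an unadjusted p under 0.05. The ratio 30' S/-S was above 1 in both experiments for 93 members (57.8%), against 27.6% of all probe sets tested, and the choice of members with low -S signals pushes this share upward. On the log2 signal scale, the part of the distance from -S to 3 h S covered at 30 min had a median of 0.13 in experiment 1 and 0.15 in experiment 2. It was below 0.25 in both experiments for 92 members, and 0 members reached 0.5 in both. Against FN, 1 of 161 members was called in 30' S seedlings, again SOT18, which was lower (adjusted p = 0.0114), beside 0.636% lower and 1.19% higher among all probe sets tested, and the FN signals in it were part of the choice. Without the FN array of experiment 2, 32 members were called against FN, 26 higher and 6 lower, and the call of SOT18 was lost without either 30' S array.

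Between 30 min and 3 h limma called a part of the members, in a comparison that used the 3 h S signals they were chosen by. In 3 h S over 30' S limma called 28 of 161 members, all higher, against 0.385% called higher of all probe sets tested. By limma 152 members had an unadjusted p under 0.05, against 2451 of 17138 probe sets tested. The median log2 difference was 0.78, against -0.02 over all probe sets tested. All 161 ratios were above 1 in both experiments, against 32.0% of all probe sets tested. High 3 h S signals were part of the choice and push this count upward, so it is not a test that is independent of the rule, and the comparisons given here share arrays. The same limit holds for the calls and adjusted p-values of single members in this step, given below. The count was 0 when any array of 3 h S or of 30' S was left out, 1 without either -S array, 5 without the experiment as a block, and 142 without either FN array. The methods' t-test called 0 after adjustment and 47 at an unadjusted p under 0.05.

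The largest named group, 19 genes, acts in assembly of the small ribosomal subunit. The roles of the members here and below were assigned after the list had been seen, from the best-known relative, mostly in yeast. Averaged over the experiments, the ratio 3 h S/-S ran from 1.65 to 3.14 in this group with a median of 2.24, and the median ratio 3 h S/30' S was 1.97. AT4G04940, the relative of yeast UTP21 of the small subunit processome, gave signals of 52.7 (FN), 34.6 (-S), 36.4 (30' S) and 102.5 (3 h S) for experiment 1 and 53.5, 34.6, 29.5 and 114.9 in experiment 2. AT3G10530, the relative of yeast UTP7, gave 70.1, 67.3, 51.2 and 157.7 in experiment 1 and 56.4, 42.4, 42.6 and 177.7 in experiment 2. Both 3 h S signals of each gene stood clear of the other 6, and between 30' S and 3 h S limma gave 1.35 ± 0.14 (SE) for AT4G04940 (adjusted p = 0.0157) and 1.55 ± 0.18 for AT3G10530 (adjusted p = 0.0225) on the log2 scale.

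YAO, a nucleolar WD-repeat protein needed in plant embryos and gametophytes, gave 87.4 (FN), 68.9 (-S), 85.0 (30' S) and 167.4 (3 h S) for experiment 1 and 90.5, 76.6, 84.0 and 175.7 in experiment 2. AT4G28450, the relative of yeast SOF1, gave 101.9, 98.4, 114.0 and 240.3 in experiment 1 and 93.4, 78.2, 99.4 and 194.3 in experiment 2. In both genes the FN, -S and 30' S signals lay within a narrow band below the 3 h S signals, and both were called in 3 h S over 30' S (adjusted p = 0.0464 each). AT3G06530, the relative of the large yeast scaffold protein UTP10, was not called in that step (adjusted p = 0.0587) although its 3 h S signals of 215.1 and 177.2 were above all others, the highest of which was 100.8. The group also held the relatives of yeast MPP10 (AT5G66540), UTP12 (AT3G21540), UTP18 (AT5G14050), UTP20 (AT4G30990) and ESF1 (AT3G01160), both genes related to UTP14 (AT4G02400 and AT5G08600) and both related to the RNA acetyltransferase KRE33 (AT1G10490 and AT3G57940). Factors that act later on the small subunit were there as well: BMS1 (AT1G06720) and TSR1 (AT1G42440), the methyltransferases EMG1 (AT3G57000) and DIM1A, and AT5G41190, the relative of yeast NOB1 that makes the last cut of the small subunit RNA. AT4G30990 had the highest fitted log2 difference 30' S over -S of this group, 0.48 ± 0.17, with 47.6 in 30' S against 23.4 in -S seedlings in experiment 1 and 49.5 against 38.5 in experiment 2, which limma did not call (adjusted p = 0.999).

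Assembly of the large subunit was represented by 11 genes on 12 probe sets, with ratios 3 h S/-S from 1.87 to 3.36 and a median of 2.25. AT3G22660, the relative of yeast EBP2, had the highest of these and gave 64.8 (FN), 58.4 (-S), 106.5 (30' S) and 192.4 (3 h S) for experiment 1 and 77.5, 46.2, 73.2 and 158.2 in experiment 2. It was 1 of 3 named members above 1.5-fold at 30 min in both experiments, with ratios 30' S/-S of 1.82 and 1.58. AT1G79150, the relative of yeast NOC3, was measured by a pair of probe sets that both became members; on the first it gave 66.2, 59.8, 44.7 and 125.2 in experiment 1 and 64.9, 59.9, 56.6 and 144.1 in experiment 2, and on the other its 3 h S signals were 78.6 and 84.8 against -S signals of 32.1 and 34.4. Both probe sets showed the same course, and they count as 1 gene. The first passed the limma limit in 3 h S over 30' S (adjusted p = 0.0247) and the other did not (adjusted p = 0.0587).

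AT4G15770, the relative of yeast NIP7, gave 362.4 (FN), 368.4 (-S), 306.0 (30' S) and 630.6 (3 h S) for experiment 1 and 369.1, 296.4, 315.7 and 691.5 in experiment 2, and was called in the late step (1.05 ± 0.15, adjusted p = 0.0498). AT5G14520 (PES, PESCADILLO), a part of the PeBoW complex of large subunit assembly, gave 249.8, 272.8, 340.7 and 519.1 in experiment 1 and 392.6, 350.8, 381.0 and 643.2 in experiment 2, with an adjusted p of 0.137 in that step. AT3G23620 (RPF2 in yeast) was called with 371.7 and 279.2 in 3 h S against 167.4 and 141.4 in 30' S seedlings (adjusted p = 0.0376). The remaining genes were the relatives of yeast NOC2 (AT2G18220), BRX1 (AT3G15460), SDA1 (AT1G13160), the RNA methyltransferases SPB1 (AT4G25730) and NOP2 (AT4G26600), and RBL. For each of these, the lower of the ratios 3 h S/-S from the 2 experiments lay between 1.80 and 2.37.

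**Figure D2:**
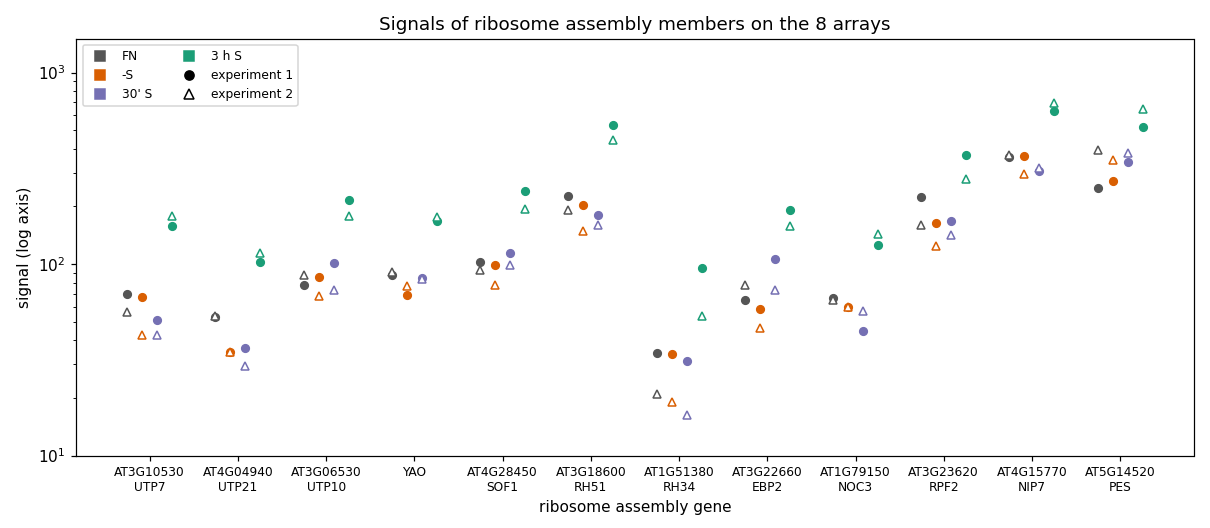
Signals (log y axis) of 12 members on the 8 arrays, ribosome assembly genes along with the DEAD-box helicases RH51 and RH34, which were placed with them by family. Conditions are in order of treatment, full nutrition leftmost and 3 h of resupply rightmost within each gene, with filled circles for experiment 1 and open triangles for experiment 2. AT1G79150 is shown by the probe set with 3 h S signals of 125.2 and 144.1, and names under a locus are those of the yeast or plant relative. In each gene both 3 h S signals lie above the other 6, a pattern that the rule required in part. For AT4G15770 the lower 3 h S signal is 630.6 and the highest other signal 369.1.

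DEAD-box RNA helicases, enzymes that open RNA structures, gave 6 members with ratios 3 h S/-S from 1.94 to 2.81 and a median of 2.42. AT3G18600 (RH51) gave 226.7 (FN), 204.2 (-S), 179.8 (30' S) and 529.6 (3 h S) for experiment 1 and 191.3, 149.5, 159.0 and 443.1 in experiment 2. AT1G51380 (RH34) gave 34.3, 34.1, 31.1 and 95.6 in experiment 1 and 20.9, 19.0, 16.3 and 53.4 in experiment 2 and had ratios 3 h S/-S of 2.80 and 2.81. Both were called between 30 min and 3 h, AT3G18600 at 1.43 ± 0.14 (adjusted p = 0.0109) and AT1G51380 at 1.17 ± 0.14 (adjusted p = 0.0224). AT5G54910 (RH32), AT2G40700 (RH17), AT3G09720 (RH57) and AT4G16630 (RH28) were the others. All 6 were counted with ribosome making by their family, and whether each of them acts there was not determined.

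The snoRNP core supplied NOP58 (AT3G05060), NOP56 (AT3G12860) and the small RNA-binding protein SNU13 (AT4G22380), which hold the guide RNA of the ribose methylation particles, and coilin (AT1G13030) is the scaffold of Cajal bodies, where such particles mature. Their ratios 3 h S/-S ran from 1.75 to 2.02 with a median of 1.83, the lowest median of the roles. AT3G05060 gave 158.5 (FN), 129.8 (-S), 181.4 (30' S) and 271.8 (3 h S) for experiment 1 and 169.3, 147.5, 149.2 and 286.4 in experiment 2, and 0 of the 4 genes were called in the late step.

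RNA polymerase I, the enzyme that makes the ribosomal RNA precursor, was represented by its 2 largest subunits NRPA1 and NRPA2 and by AT1G75670, the relative of yeast subunit A43. NRPA2 gave 171.4 (FN), 220.7 (-S), 209.6 (30' S) and 395.7 (3 h S) for experiment 1 and 132.0, 155.7, 154.9 and 269.8 in experiment 2. NRPA1 gave 16.8, 41.3, 67.4 and 118.2 in experiment 1 and 54.1, 58.3, 58.5 and 106.8 in experiment 2. Its FN signal in experiment 1 was below the array floor of 20.3, the signal at the share of probe sets called absent, so its ratio 3 h S/FN there is at least 5.82. AT1G75670 gave 61.3, 58.6, 60.4 and 127.9 in experiment 1 and 62.4, 48.1, 55.6 and 106.2 in experiment 2. In all 3 genes both 3 h S signals were above the other 6, and none was called in 3 h S over 30' S (adjusted p = 0.0645 for NRPA2, 0.355 for NRPA1 and 0.0645 for AT1G75670).

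Subunits named for the other nuclear RNA polymerases were not members. Some of these are shared with polymerase I, so the set is not a clean contrast to that enzyme. By the smaller of its 2 ratios 3 h S/-S, the polymerase II subunit NRPB7 came nearest, followed by NRPB12 with ratios of 1.53 and 1.64. NRPB7 had 163.5 and 135.5 in 3 h S against 105.4 and 86.0 in -S seedlings, ratios of 1.55 and 1.58. Its ratios 3 h S/FN of 1.70 and 1.58 were past the limit of 1.5, so only the limit of 1.6 on 3 h S/-S kept it out. The second-largest subunit of polymerase III, NRPC2, gave 83.1 and 67.8 in 3 h S against 66.3 and 49.3 in -S seedlings, and NRPB6B gave 251.3 and 251.5 against 323.3 and 206.9. In limma 3 h S over -S gave 0.57 ± 0.13 for NRPB7 (adjusted p = 0.129), 0.31 ± 0.14 for NRPC2 (adjusted p = 0.399) and -0.04 ± 0.19 for NRPB6B (adjusted p = 0.953), and the difference between polymerases was not tested.

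**Figure D3:**
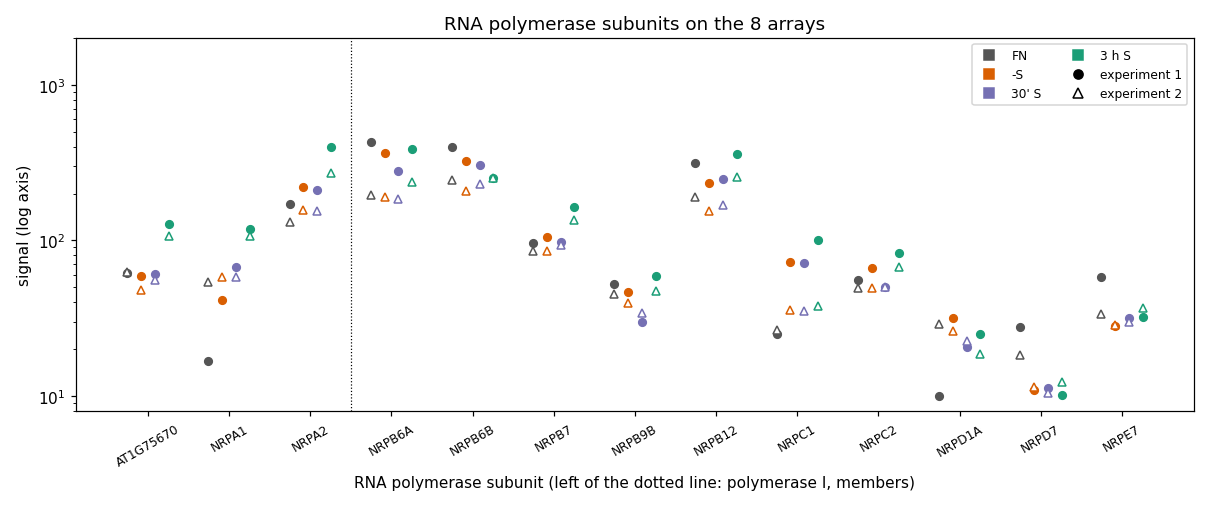
Signals (log y axis) of named RNA polymerase subunits on the 8 arrays, conditions from full nutrition (left) to 3 h of resupply (right) within each gene, filled circles for experiment 1 and open triangles for experiment 2. The 3 polymerase I members left of the dotted line have both 3 h S signals on top, a pattern the rule chose them for, and of the others NRPB7 (163.5 and 135.5) and NRPC2 (83.1 and 67.8) have both on top as well. Some subunits right of the line are shared with polymerase I.

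A few proteins of the finished ribosome and of translation were members. AT3G57490, a copy of the small subunit protein RPS2, gave 180.2 (FN), 96.2 (-S), 141.1 (30' S) and 400.6 (3 h S) for experiment 1 and 191.9, 141.6, 162.5 and 347.3 in experiment 2. AT2G32220, of the RPL27 family, and AT1G80750, of the RPL7 family, were called in the late step (adjusted p = 0.0376 and 0.0353). AT1G15250 of the RPL37 family, AT3G58660 of the L1 family and AT1G77840, the initiation factor eIF5, completed this group of 6, whose ratios 3 h S/-S were 1.88 or more with a median of 2.18. Ribosomal proteins are coded by small gene families of near-identical copies, so a probe set may report more than 1 copy. Together with RNA polymerase I, the snoRNP core, the helicases and the assembly factors these made up 49 of the 98 named genes, a count of roles given after the list was seen and with no background share. Outside this total stood AT3G02320, a relative of the transfer RNA methyltransferase TRM1, and AT5G26180, a relative of the ribosomal RNA methyltransferase NSUN5.

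Chloroplast and mitochondrial proteins coded in the nucleus gave 8 members with ratios 3 h S/-S from 1.85 to 2.96. TAAC was named as a thylakoid carrier of ATP and ADP, and whether it carries other substrates was not examined here. It gave 96.3 (FN), 52.8 (-S), 67.3 (30' S) and 153.8 (3 h S) for experiment 1 and 104.1, 60.4, 70.1 and 173.9 in experiment 2. Its -S signals were below its FN signals in both experiments (-0.68 ± 0.13, adjusted p = 0.0648), and it was called in the late step (1.08 ± 0.13, adjusted p = 0.0247). PPR596, a pentatricopeptide repeat protein, was called there too, with 238.6 and 177.4 in 3 h S against 94.8 and 93.1 in 30' S seedlings (adjusted p = 0.0498). The others were the thylakoid curvature protein CURT1D (AT4G38100), the transcription termination factor mTERF9 (AT5G55580), a further pentatricopeptide repeat protein (AT2G17670), a ribosome recycling factor (AT3G01800), a polynucleotide phosphorylase (AT5G14580) and a mitochondrial carrier (AT3G53940).

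Among members with other roles, SOT18, which adds the sulfate group in the last step of glucosinolate core synthesis, was 1 of the 7 members more than 1.5-fold below FN in -S seedlings in both experiments. It gave 579.7 (FN), 243.2 (-S), 200.0 (30' S) and 981.4 (3 h S) for experiment 1 and 468.3, 224.6, 194.1 and 704.9 in experiment 2. Both -S and both 30' S signals were below both FN signals, and both 3 h S signals were above them. The log2 differences were -1.10 ± 0.16 in -S over FN (adjusted p = 0.0218), -1.33 ± 0.16 in 30' S over FN (adjusted p = 0.0114) and 1.99 ± 0.16 in 3 h S over 30' S (adjusted p = 0.00462), with an adjusted p of 0.999 in 30' S over -S. The last step was called under 11 of 16 alternatives. AT5G67150, of an acyltransferase family, gave 93.2, 50.7, 59.2 and 142.7 in experiment 1 and 81.4, 43.7, 53.5 and 123.0 in experiment 2. Its -S and 30' S signals were below FN and its 3 h S signals above as in SOT18, but its 30' S signals were above its -S signals in both experiments, where those of SOT18 were below. Its -S over FN difference of -0.71 ± 0.13 was not called (adjusted p = 0.0564). AT5G62440, named here with no role, also had its -S signals (73.9 and 72.5) below FN (117.6 and 131.4) and its 3 h S signals (216.6 and 200.4) above.

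The opposite course, higher in starved than in FN seedlings and higher again at 3 h, was seen in the transporter ABCB12 and, in experiment 1, in SOT12, a sulfotransferase of hormones and other small molecules. ABCB12 gave 12.8 (FN), 47.9 (-S), 61.7 (30' S) and 93.7 (3 h S) for experiment 1 and 13.9, 27.1, 21.8 and 50.1 in experiment 2, with its FN signal of experiment 1 below the floor. The probe set of ABCB12 has a suffix for probe sets that may report more than 1 similar transcript. SOT12 gave 51.5, 166.5, 166.6 and 300.5 in experiment 1 and 71.6, 74.6, 88.9 and 187.2 in experiment 2, so that its -S signal was above FN by 3.23-fold in experiment 1 and by 1.04-fold in experiment 2. Neither was called in -S over FN (adjusted p = 0.148 for ABCB12 and 0.235 for SOT12). The names of these, of SOT18 and of the response regulator ARR6 came from the study's tables, part of which lists probe sets for a rise in -S over FN in experiment 1, so a member that rose there was more likely to have a name.

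The multidrug and toxin extrusion (MATE) transporter AT2G04050 differed between experiments, with 13.8 (FN, below the floor), 91.2 (-S), 169.6 (30' S) and 188.5 (3 h S) for experiment 1 and 16, 13.8, 26.2 and 51.4 in experiment 2. A further member of that transporter family, AT5G65380, gave 3 h S signals of 244.1 and 335.3 against -S signals of 121.4 and 183.9. OCT5, an organic cation transporter, gave 89.3 and 125.9 in 3 h S against 52.6 and 44.1 in -S seedlings. ARR6, which belongs to the type-A response regulators of cytokinin signalling, gave 104.2, 40.3, 66.6 and 157.2 in experiment 1 and 60.1, 54.8, 70.0 and 96.6 in experiment 2, with 3 h S/FN ratios of 1.51 and 1.61 just inside the limit. AT1G33600, a leucine-rich repeat protein, gave 64.5, 30.1, 49.2 and 102.5 in experiment 1 and 50.5, 35.5, 86.7 and 153.2 in experiment 2. With AT2G04050 and AT3G22660 it was above 1.5-fold at 30 min in both experiments (ratios 30' S/-S of 1.63 and 2.44).

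AT2G18900, given no role here, had the largest ratio 3 h S/-S when the smaller of both experiments is taken. It gave 40 (FN), 33.1 (-S), 43.1 (30' S) and 133.2 (3 h S) for experiment 1 and 43.5, 34.6, 46.9 and 123.1 in experiment 2, and its late step was called (1.24 ± 0.13, adjusted p = 0.0166). In 5 members the 3 h S signals of the experiments differed by more than 2-fold. AT1G20380, of the prolyl oligopeptidase family, gave 888.5, 844.6, 104.4 and 1516.3 in experiment 1 and 113.4, 50.3, 71.3 and 207.5 in experiment 2, and was below -S at 30 min in experiment 1 and above it in experiment 2. AT2G41730, on a probe set whose suffix marks possible cross-hybridization, gave 4.1, 181.2, 248.1 and 473.5 in experiment 1 and 25.4, 33.6, 38.3 and 180.5 in experiment 2, where 4.1 is below the floor and the ratio 3 h S/FN is at least 23.3. The others were AT2G04050, AT5G66985 and an unnamed probe set, and all 5 were higher in experiment 1. Over the 161 members the log2 ratios of both experiments correlated with r = 0.41 for -S/FN, 0.02 for 30' S/-S and 0.27 for 3 h S/30' S, as a description across probe sets of the same arrays.

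**Figure D4:**
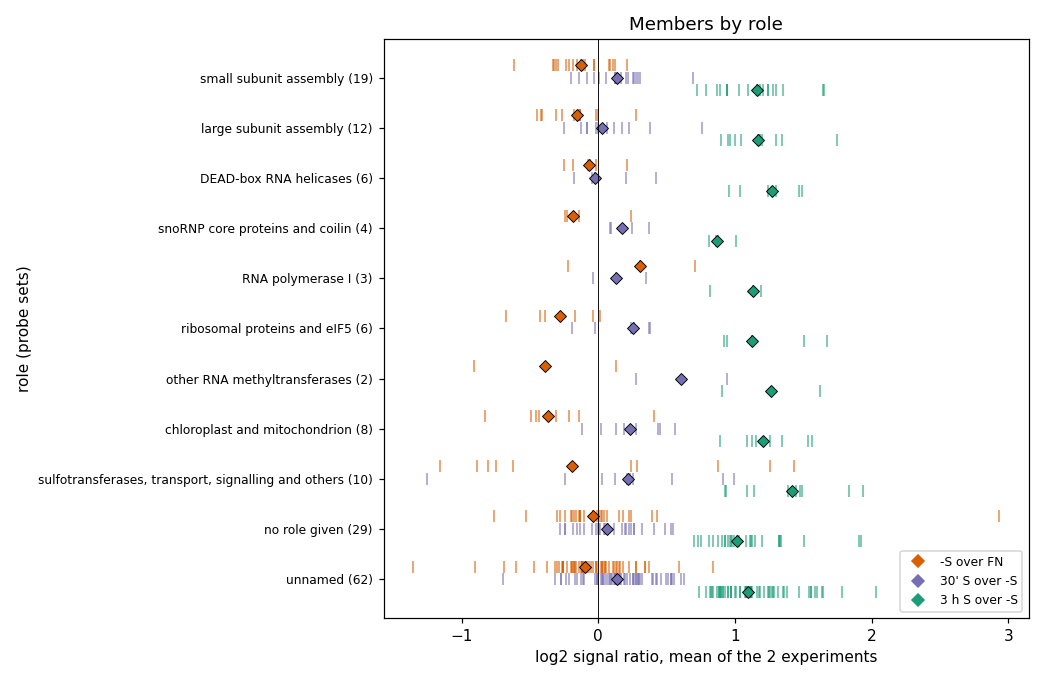
Log2 signal ratios of the members (mean of both experiments, x axis) by role, with the number of probe sets in parentheses; ticks are probe sets, diamonds are medians, and the rows of each role are -S over FN, 30' S over -S and 3 h S over -S. The row called unnamed holds the 59 probe sets without a name and the 3 with several genes. The ratios 3 h S over -S lie to the right in every role because the rule chose them so, and the median ratio is 2.24 for small subunit assembly and 2.25 for large subunit assembly.

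The unnamed members resembled the named ones in size, with a median ratio 3 h S/-S of 2.14. As an example, an unnamed probe set gave 1509.1 and 1426.6 in 3 h S against 821.8 and 701.5 in -S seedlings. At the edge of the rule, members just inside the 3 h S/-S limit had a smaller ratio of 1.606 to 1.617 (AT3G57000 at 1.617, AT1G20910 at 1.615), and probe sets just outside it had 1.590 to 1.599 (ZIP9, AT4G12130, AT1G16830 and LSH5). For 3 h S/FN the values inside were 1.504 to 1.511 (AT3G57000, SOT18, ARR6 and AT5G67150) and those outside 1.491 to 1.499, with the nucleolar GTPase gene NSN1 at 1.495. For the signal limit they were 30.4 to 31.6 inside and 16.8 to 29.7 outside, and the nucleolin gene NUC-L2, at 17.8, was kept out by this limit alone. Of the members, 144 were at or above the floor on all 8 arrays and 17 were below it on at least 1, 13 of them on the FN array of experiment 1. The named members lay on all 5 nuclear chromosomes, with 28, 13, 24, 13 and 21 probe sets from chromosome 1 to chromosome 5, shares of 28.3, 13.1, 24.2, 13.1 and 21.2% against 25.6, 16.2, 20.2, 14.5 and 22.3% of all probe sets with 1 gene.

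Named ribosome assembly genes that the rule did not take were also higher in 3 h S than in -S seedlings in both experiments. A list of 45 further assembly loci was written after the members had been seen, from general knowledge of the pathway and not for their values, and 15 of them are named on the array. The 3 h S signal was above the -S signal in both experiments for 15 of 15, against 30.9% of all probe sets tested, and above the FN signal in both for 15 of 15, against 34.3%. In experiment 1 AT1G77030 had 2.8 (FN) and 8.1 (-S), below the floors of 20.3 and 18.8. Its ratio 3 h S/-S in experiment 2 was 1.07. The FN signal of NSN1 in experiment 1, 9.5, was also below the floor. The median log2 difference was 0.77 in 3 h S over -S (-0.03 over all probe sets tested) and 0.56 in 3 h S over FN (0.04 over all). In -S over FN, 12 of 15 were lower in both experiments, against 29.0% of all probe sets tested. The median there was -0.30 (0.05 over all), and limma called 0. The differences over -S thus start from -S signals that were mostly below FN. In limma 4 of 15 were called higher in 3 h S over -S, against 0.735% of all probe sets tested: AT1G52930 (BRX1 in yeast), AT3G03920 (GAR1, a snoRNP protein), AT2G37990 (RRS1 in yeast) and the helicase AT5G60990 (RH10). AT1G52930 gave 283.4 (FN), 189.5 (-S), 167.9 (30' S) and 347.8 (3 h S) for experiment 1 and 210.9, 135.6, 153.8 and 330.1 in experiment 2. In 3 h S over FN limma called 0 of 15, with 12 at an unadjusted p under 0.05, and the methods' t-test called 0 with 1 at an unadjusted p under 0.05; 0.414% of all probe sets tested were called higher. The count of 4 was 0 when any -S, 30' S or 3 h S array was left out, 0 without the experiment as a block and 13 without either FN array.

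Cytosolic ribosomal protein genes outside the members had smaller median differences, and none was called. The list of these proteins by symbol, written earlier, found 1 probe set, through the symbol ATL5, which RefSeq gives both to the ribosomal protein L5 gene AT3G25520 and to AT3G62690. The probe set is that of AT3G62690, with a log2 difference of -0.57 ± 0.23 in 3 h S over -S (adjusted p = 0.348) and -0.36 ± 0.23 in 3 h S over FN (adjusted p = 0.430), so this list measured no ribosomal protein. Of 33 loci listed after the members had been seen, by the same route as the assembly genes, 10 are named on the array, and 10 of 10 had 3 h S above -S in both experiments, with a median log2 difference of 0.43, while 5 of 10 had 3 h S above FN in both, with a median of 0.06. Limma called 0 of 10 in 3 h S over -S and gave 5 at an unadjusted p under 0.05, and the methods' t-test called 0 and gave 1. In -S over FN, 7 of 10 were lower in both experiments, with a median log2 difference of -0.29, and limma called 0. AT2G37190 gave 1261.5 (FN), 885.4 (-S), 882.5 (30' S) and 1289.7 (3 h S) for experiment 1 and 1115.8, 871.1, 860.5 and 1207.5 in experiment 2, so its 3 h S signals were near FN rather than above it. The difference between assembly genes and ribosomal proteins was not tested.

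**Figure D5:**
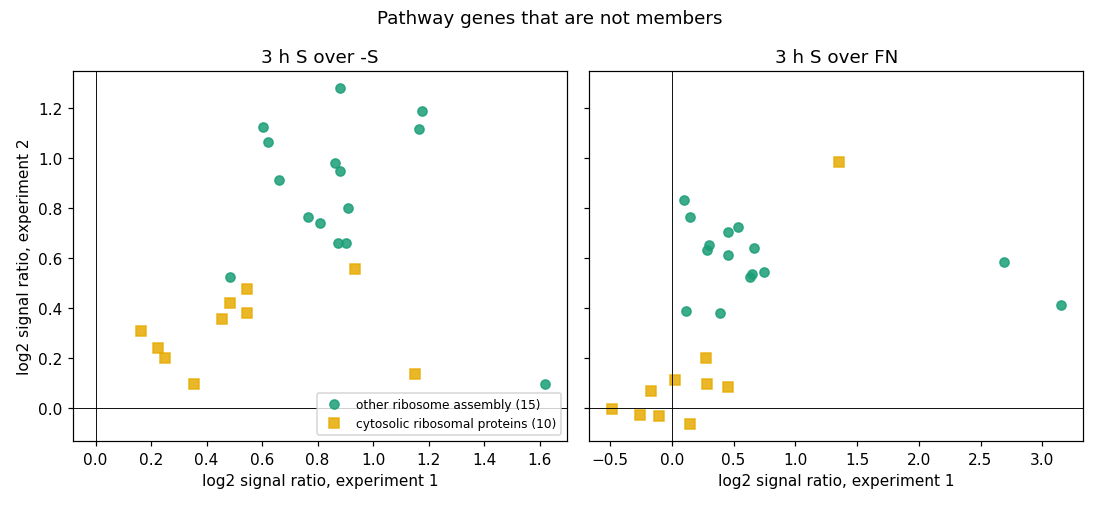
Log2 signal ratios 3 h S over -S (left) and 3 h S over FN (right) of pathway genes that are not members, experiment 1 on the x axis and experiment 2 on the y axis; circles are 15 ribosome assembly genes and squares the 10 cytosolic ribosomal proteins listed by locus. On the left all points are above 0 in both experiments, and on the right 15 of 15 assembly genes and 5 of 10 ribosomal proteins are.

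Of 26 gene lists with 739 symbols, 157 probe sets were found for 25 lists, and 2 of these probe sets were members: PES in the list on ribosome making and ARR6 in that on cytokinin response. With 1.28% of the probe sets with enough 3 h S signal taken by the rule, a count of this size is no result about the members. The list on sulfate uptake and assimilation had 0 members among 16 genes found, with a median log2 difference of 1.99 in -S over FN and -1.48 in 3 h S over -S. Signals of 3 root markers (PYK10, EXPA7 and EXPA18) were at or above the floor on all arrays, with sums of 3233 to 3236 in 3 h S, 3152 to 3260 in -S and 3015 to 3836 in FN seedlings. The 4 named photosynthesis genes summed to 3207 to 5458 in 3 h S, 3307 to 6200 in -S and 6853 to 6999 in FN seedlings, and 0 of the listed leaf markers were found by name. The part of these signals in the members' values was not tested. In whole seedlings, a change in the share of a tissue and a change in RNA per cell cannot be told apart.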

How the data were processed

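Per the labels and the study's methods, RNA of whole seedlings was hybridized to ATH1 arrays. The authors deposited intensity values, MAS 5.0 signals scaled per array to the same level (2% trimmed mean 99.4 on each; medians 41.9 to 47.6). The scaling target was not given in the sources used here; detection calls were not used. Groups and experiments were taken from the titles.

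Each array's floor (10.9 to 20.3) is the signal at the share of probe sets the study lists as absent for it. Probe sets at or above it on at least 2 arrays were tested (17138; 5608 left out). limma 3.58.1 in R 4.3.3 was fitted to log2(signal + 16) with a term per condition and the experiment as a block, since the labels give each experiment its own number (3 residual and 4.0 prior degrees of freedom), and p-values were adjusted by Benjamini-Hochberg over all probe sets tested with a limit of 0.05. The added 16 makes folds of low signals smaller than the raw ratios. As a check of the pairing, the differences between experiments correlated between conditions with r from 0.08 (FN and 30' S) to 0.71 (-S and 3 h S). The methods' test, a two-sided heteroscedastic t-test, was run on the same values as an alternative, called the methods' t-test. The fit was also run on simulated data, for 30' S over -S only. That simulation used independent noise with the same spread for all probe sets and no experiment effect. It therefore does not show how the fit performs on these arrays. Python 3.11.15 (numpy 2.4.6, pandas 2.3.3) gave the ratios and matplotlib 3.10.9 the figures.

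Names came from the platform annotation and, for 807, the study's tables: 14320 have 1 gene, 503 several and 7923 none. The text names members with the 20 largest smaller ratios 3 h S/-S, the 10 highest 3 h S signals, the 5 highest and 5 lowest differences in -S over FN and in 30' S over -S, list members, the 4 nearest each limit and up to 10 called per comparison, where they have 1 gene; members named for their role were chosen after their values were seen. The members and lists were chosen with earlier results of these data known.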

Additional observations from a re-analysis of the deposited data

How the results depend on the processing

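By the rule itself, ratios of signal + 16 gave 102 members and a limit of 2 for both folds gave 18, and a single experiment passed 563 (experiment 1) or 315 (experiment 2) probe sets; quantile normalization, median scaling, a signal minimum of 60 and none gave 147, 142, 129 and 227. In -S over FN the single called member became 2 with signals raised to the floor in place of the offset, 2 with an offset of 64, 4 after quantile normalization and 3 after median scaling, all lower, and 0 with no replicate block, with no filter, in a fit of only the 2 compared conditions and by the methods' t-test, which gave 8 at an unadjusted p under 0.05; leaving out 1 array gave 0 to 22. In 30' S over -S every alternative with adjusted p gave 0 members, and the methods' t-test gave 3 unadjusted. In 3 h S over 30' S the 28 members became 5 with no replicate block, 11 with no filter, 143 in a fit of only the compared conditions, 0 by the methods' t-test (47 unadjusted) and 0 to 142 with 1 array left out; the offset, floor, quantile and median alternatives gave 27 to 41, of which 25 to 28 were among the 28. In 30' S over FN the 1 member became 2 with an offset of 64, 0 with only the compared conditions, 0 by the methods' t-test (4 unadjusted) and 0 to 32 with 1 array left out. Of the other ribosome assembly genes in 3 h S over -S, alternatives chosen after seeing the data gave 0 with no replicate block, 2 with the floor, 10 with an offset of 64, 2 after median scaling, 1 with no filter, 13 with only the compared conditions, 0 by the methods' t-test and 0 to 13 with 1 array left out, against 4. A condition left with 1 array was assumed to vary like the others, and the cause of these changes was not tested. Of the 19 named probe sets called in 3 h S over 30' S, 0 were called in all 8 fits that left out an array. No value called for a named gene changed sign under any alternative. Signals near the floor limit the 17 members below it on some array.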
